A study of Homo sapiens with 6 samples.

Results

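The 10 genes described here, ATF4, ATF3, DDIT3, TRIB3, CHAC1, ASNS, SESN2, DDIT4, PPP1R15A and NUPR1, encode the transcription factor ATF4 and regulators and effectors of the integrated stress response (ISR). They were taken by symbol from the deposited table, in which each has 1 row among 21151 listed genes. All 10 passed the filter on low counts and were tested. The cells were human dermal fibroblasts of the line CCD-1064Sk, an established fibroblast line from skin. They carried short-hairpin RNAs, which direct degradation of a matching transcript, against the zinc-finger gene ZNF469 (shZNF469, genotype label ZNF469 knockdown, 3 libraries) or a control hairpin (shControl, genotype label WT, 3 libraries). All 6 libraries come from this 1 line, and the series text calls the 3 of each group technical replicates, so p-values measure only the spread between these libraries. How many hairpins were used is not given in the sources used here.

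In the ISR, kinases that sense amino acid shortage, misfolded protein in the endoplasmic reticulum, double-stranded RNA or mitochondrial and haem stress phosphorylate the translation initiation factor eIF2. General translation then falls, while translation of the ATF4 mRNA rises because of short upstream reading frames. ATF4 pairs with C/EBP proteins on C/EBP-ATF response elements and raises genes of amino acid synthesis, amino acid uptake and tRNA charging, together with further stress factors and the phosphatase subunit that ends the response. Fibroblasts making collagen use much glycine and proline, and amino acid supply genes are among the best known ATF4 targets. RNA sequencing measures mRNA levels and neither eIF2 phosphorylation nor ATF4 protein.

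Promoter sequences are shown for 3 members that differed in their response, CHAC1 and ASNS, the members with the largest log2 fold changes, and PPP1R15A, which did not pass the test. Each is the 250 bases before an annotated RefSeq start on GRCh38.p14, 5′ to 3′ on the strand of the gene. The windows are chr15:40953221-40953470 on the plus strand for CHAC1, chr7:97872409-97872658 on the minus strand for ASNS and chr19:48872171-48872420 on the plus strand for PPP1R15A. Capitals mark a match to TGATGNAA, a core of the C/EBP-ATF response element (CHAC1, on the opposite strand, and ASNS), or to TGACGTCA, the cAMP response element (PPP1R15A).
CHAC1: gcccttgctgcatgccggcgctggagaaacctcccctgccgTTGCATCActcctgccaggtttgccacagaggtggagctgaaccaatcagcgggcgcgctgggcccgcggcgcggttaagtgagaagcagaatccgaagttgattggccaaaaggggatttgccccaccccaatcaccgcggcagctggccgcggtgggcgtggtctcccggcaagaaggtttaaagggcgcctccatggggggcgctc
ASNS: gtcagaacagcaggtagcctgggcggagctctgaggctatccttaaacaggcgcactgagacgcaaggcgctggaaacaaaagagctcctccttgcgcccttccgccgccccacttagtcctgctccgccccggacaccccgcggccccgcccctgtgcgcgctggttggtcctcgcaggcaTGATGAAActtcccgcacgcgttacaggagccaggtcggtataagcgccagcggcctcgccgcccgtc
PPP1R15A: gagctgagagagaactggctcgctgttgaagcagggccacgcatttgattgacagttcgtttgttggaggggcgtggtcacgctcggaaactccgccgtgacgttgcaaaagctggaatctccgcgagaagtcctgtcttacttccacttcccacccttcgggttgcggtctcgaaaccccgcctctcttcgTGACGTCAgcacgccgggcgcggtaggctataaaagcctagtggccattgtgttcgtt

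The CHAC1 match begins 209 bases upstream of the annotated start. The ASNS match begins 68 bases upstream of the upstream one of 2 annotated ASNS starts and was not found at the other. RefSeq windows from 250 bases before to 50 after a start were at hand for 9 of the 10 members. TGATGNAA on either strand was found for 3 of these 9, CHAC1, ASNS and ATF3 (at the upstream one of 2 ATF3 starts), against 4.46% of 27305 genes with a window. That motif was not found for ATF4, DDIT3, TRIB3, SESN2, DDIT4 or PPP1R15A. TGACGTCA, which reads the same on both strands, was found for PPP1R15A alone among the 9, 58 bases upstream of its start, against 2.25% of all genes. Some genes have several windows. Counted by window, TGATGNAA was in 20.0% of 15 member windows and 3.62% of 35116 windows in all. TGACGTCA was in 6.67% and 1.85% of these. The consensus endoplasmic reticulum stress response element, on either strand, was found for 0 of the 9 and for 0.0916% of all genes. A match describes the letters in these windows and nothing more.

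Total counts were 41318439 to 48298264 in shZNF469 libraries and 35417366 to 46911355 in shControl libraries. ZNF469 itself had 21.4, 18.3 and 18.5 CPM (read counts relative to the TMM-normalised library size) in shZNF469, against 39.7, 46.2 and 39.9 CPM in shControl, and so was lower in every knockdown library (log2 fold change -1.12, edgeR adjusted p = 0.000873). All 11 fibroblast markers were listed, led by VIM, COL1A2 and COL1A1. Their summed levels were 24983 to 26422 TPM in shZNF469 and 31930 to 34303 TPM in shControl (TPM is the authors' length-scaled abundance). COL1A1, COL1A2 and COL3A1 were called lower (log2 fold changes -1.75, -0.87 and -0.81) and VIM higher (0.32, adjusted p = 0.0146), and the median over the 11 was 0.12. Of 7 keratinocyte markers only KRT10 was listed, of 6 melanocyte markers only PMEL, of 6 endothelial markers 3 and of 7 immune markers 2. Summed marker levels lay at 18.5 to 18.8 TPM in shZNF469 and 24.4 to 28.3 TPM in shControl for keratinocytes, and at 27.8 to 32.2 and 15.1 to 15.6 TPM for melanocytes. KRT10 was called lower (log2 fold change -0.51, edgeR adjusted p = 0.0190) and PMEL higher (1.01, edgeR adjusted p = 0.000525). No endothelial or immune marker was called. Endothelial markers summed to 0.550 to 1.35 TPM in shZNF469 and 0.904 to 1.66 TPM in shControl, and immune markers, almost entirely CD68, to 204 to 245 and 172 to 195 TPM. Whether these shifts play a part in the results below was not tested. The labels name no batch.

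Of the 10 ISR genes, 7 were lower in shZNF469 and none was higher. Those that fell were CHAC1, ASNS, DDIT4, DDIT3, TRIB3, ATF4 and SESN2, with falls of 1.29-fold to 3.22-fold. ATF3, NUPR1 and PPP1R15A did not pass the test. The test was edgeR's quasi-likelihood F-test over all 16353 genes that passed the filter, with a Benjamini-Hochberg adjusted p under 0.05 counted as a call, and it called 5.34% of all tested genes lower and 4.56% higher, 9.9% in all. In these bulk libraries, fewer expressing cells and less mRNA per cell cannot be told apart. The median log2 fold change (shZNF469 minus shControl throughout) was -0.61 over the 10 members and 0.0039 over all tested genes. At an unadjusted p under 0.05 the count of higher members was also 0, and DESeq2 called 1, PPP1R15A. Every shZNF469 library lay below every shControl library for 7 members and above for 1, where 15.7% and 15.6% of all tested genes did so, 31.4% in either direction.

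**Figure D1:**
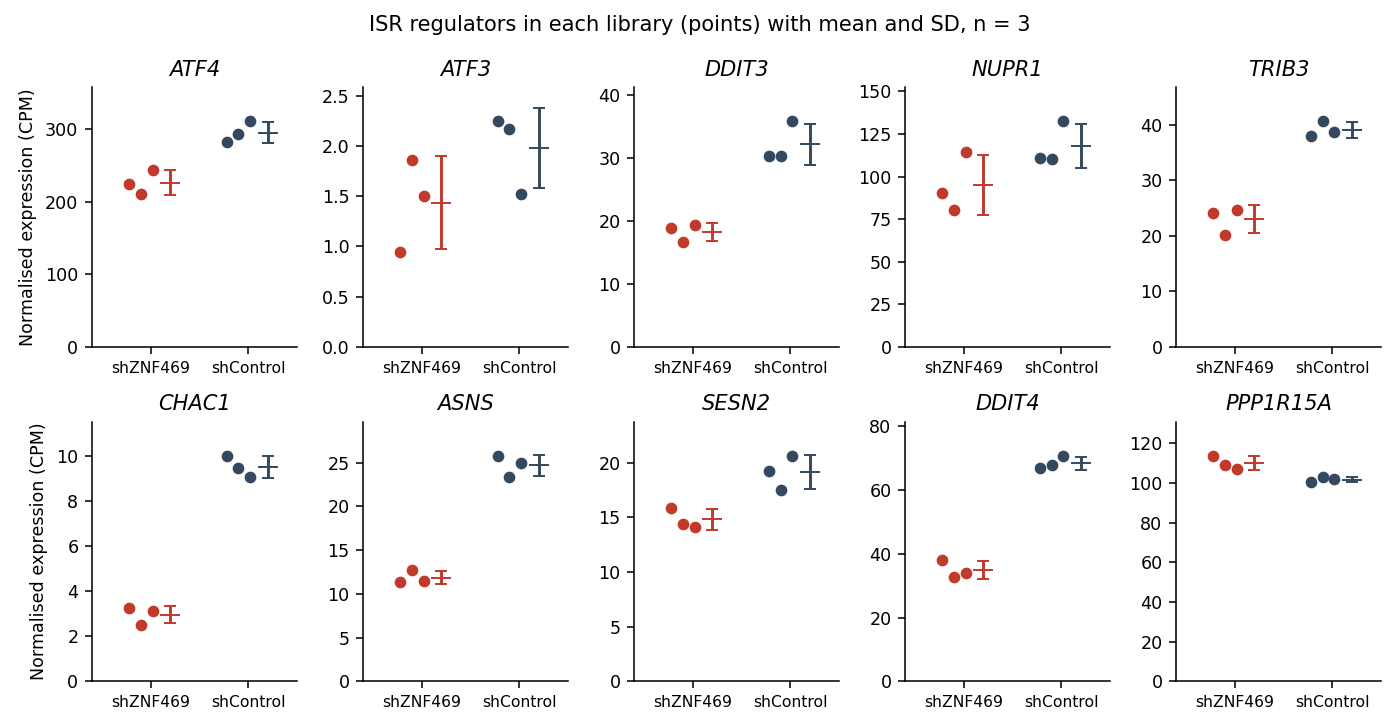
Normalised expression in CPM (vertical axes, from 0) of the 10 ISR genes in each shZNF469 library (red points, left) and each shControl library (dark points, right), with the mean and SD of 3 libraries beside the points. The groups are apart for 8 genes, with PPP1R15A the 1 gene at which shZNF469 lies higher, and overlap for ATF3 and NUPR1.

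Among the transcription factors, ATF4 (ENSG00000128272, chromosome 22, 39520559 to 39522686, plus strand) had 224, 210 and 244 CPM in shZNF469, against 281, 293 and 311 CPM in shControl. All knockdown values thus lay under the lowest control. ATF4 mRNA fell 1.30-fold (226 ± 16.7 against 295 ± 14.8 CPM, SD, n = 3 each; log2 fold change -0.38, SE 0.07, edgeR adjusted p = 0.0162). Its call was lost when shControl replicate 1, 2 or 3 or shZNF469 replicate 1 was left out, with adjusted p of 0.0553, 0.0667, 0.0673 and 0.0748 and log2 fold changes of -0.41 to -0.35. ATF4P3, 1 of 4 annotated processed pseudogenes of ATF4, is also listed, at a mean of 29.5 counts, so reads shared with the copies can have been split.

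DDIT3 encodes CHOP, a C/EBP-family factor that ATF4 induces and that promotes cell death under lasting stress. The gene (chromosome 12, 57516588 to 57520517, minus strand) had 19.0, 16.7 and 19.3 CPM in shZNF469, against 30.3, 30.3 and 35.9 CPM in shControl. The groups were well apart, and DDIT3 fell 1.76-fold (log2 fold change -0.81, SE 0.09, edgeR adjusted p = 0.00300). Of its 1307 annotated exon bases, 355 are shared with MARS1 and 58 with MBD6 on the opposite strand. Because the strand setting of the counting is not given, reads of DDIT3 and these neighbours cannot be told apart there. MARS1, the methionyl-tRNA synthetase gene, was itself 1.48-fold lower.

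ATF3 encodes a stress-induced factor of the same bZIP class that can repress or activate transcription. It was the weakest member, with 44, 92 and 61 counts in shZNF469 and 80, 102 and 57 counts in shControl, a mean of 1.43 ± 0.461 CPM against 1.98 ± 0.395 CPM (SD, n = 3 each). The groups overlapped. The log2 fold change was -0.46 with a 95% interval of -1.22 to 0.30 (edgeR adjusted p = 0.460), so at this depth neither a fall of the size seen for CHOP mRNA nor a small rise could be set apart.

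NUPR1 encodes a small chromatin-associated stress protein. The gene (chromosome 16, 28532708 to 28538974, minus strand) had 90.2, 80.3 and 115 CPM in shZNF469, against 111, 110 and 133 CPM in shControl. shZNF469 replicate 3 lay inside the control range and the other two below it. The log2 fold change of -0.31 (95% interval -0.63 to 0.012) did not pass (edgeR adjusted p = 0.220). It was -0.20 without shZNF469 replicate 2 and -0.47 without shZNF469 replicate 3, and passed in neither fit.

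The strongest fall was that of CHAC1, whose product breaks down glutathione. The gene (chromosome 15, 40953471 to 40956512, plus strand) had 3.23, 2.52 and 3.10 CPM in shZNF469, against 9.99, 9.47 and 9.04 CPM in shControl. The knockdown libraries kept 31.1% of the control mean (3.22-fold lower, log2 fold change -1.69, SE 0.13, edgeR adjusted p = 0.000675). Only 0.807% of tested genes had a lower log2 fold change.

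ASNS makes asparagine from aspartate and glutamine and is a classic amino acid response gene. It lies on chromosome 7 (97851677 to 97928441, minus strand). Its 11.3, 12.7 and 11.5 CPM in shZNF469 stood against 25.8, 23.4 and 24.9 CPM in shControl, without overlap. ASNS fell 2.08-fold (log2 fold change -1.06, SE 0.08, edgeR adjusted p = 0.000587). An unnamed transcript on the same strand shares 1985 of its 4455 exon bases but has a mean of only 66.3 counts.

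TRIB3 encodes a pseudokinase that binds ATF4 and CHOP and dampens their activity. The gene (chromosome 20, 380760 to 397559, plus strand) had 24.2, 20.2 and 24.7 CPM in shZNF469, against 37.9, 40.7 and 38.8 CPM in shControl. Here too the groups did not overlap, and TRIB3 fell 1.70-fold (log2 fold change -0.77, SE 0.09, edgeR adjusted p = 0.00270).

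DDIT4 and SESN2 both encode inhibitors of the growth kinase complex mTORC1. DDIT4 (also known as REDD1, chromosome 10, 72273924 to 72276036, plus strand) had 38.1, 32.7 and 34.1 CPM in shZNF469, against 66.8, 67.8 and 70.8 CPM in shControl. It fell 1.96-fold (log2 fold change -0.97, SE 0.07, edgeR adjusted p = 0.000560), the lowest p of the 10. An annotated antisense gene, DDIT4-AS1, shares 847 of its 2058 exon bases and is not a row of the table. SESN2 (chromosome 1, 28259518 to 28282491, plus strand), a leucine sensor, had 15.9, 14.4 and 14.2 CPM in shZNF469, against 19.3, 17.5 and 20.6 CPM in shControl. Its fall of 1.29-fold (log2 fold change -0.37, SE 0.09, edgeR adjusted p = 0.0399) was the least secure. The call was lost with limma on log2 TPM, without the count filter and when any 1 library was left out, and the adjusted p ran from 0.00103 to 0.135 over the 15 alternatives.

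PPP1R15A encodes GADD34, the inducible subunit that directs a phosphatase to eIF2 and so closes the response. The gene (chromosome 19, 48872421 to 48876058, plus strand) had 114, 109 and 107 CPM in shZNF469, against 100, 103 and 102 CPM in shControl. All knockdown values lay above all control values in CPM but not in TPM, where shZNF469 replicate 3 (85.7 TPM) fell inside the control range. The 1.08-fold difference (log2 fold change 0.11, 95% interval -0.0055 to 0.23, edgeR adjusted p = 0.225) did not pass. DESeq2 did call it higher (adjusted p = 0.0459), and its other alternatives ran as high as 0.677.

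**Figure D2:**
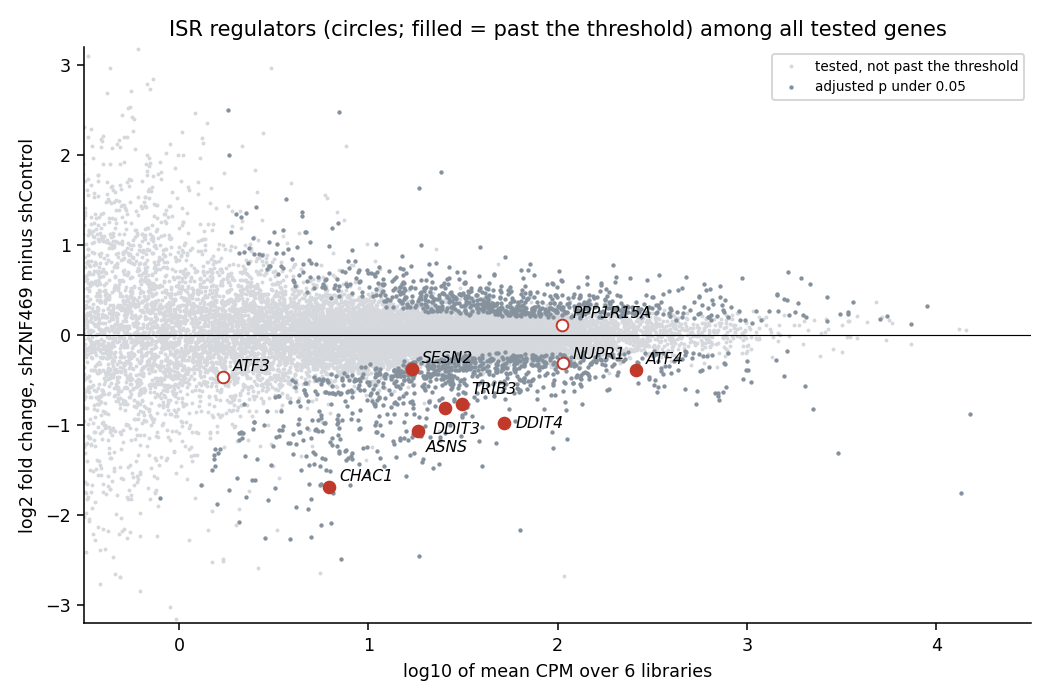
Log2 fold change of shZNF469 minus shControl (vertical axis) against the log10 of mean CPM (horizontal axis) for all tested genes, with the 10 ISR genes as circles, filled where the adjusted p was under 0.05. CHAC1 at -1.69 lies lowest of the 10 and PPP1R15A at 0.11 highest; 709 genes lie outside the plotted range.

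Compared per length, by the authors' TPM, ATF4 was by far the most abundant of the 10 in both groups, at 353 ± 4.32 TPM in shZNF469 and 473 ± 29.2 TPM in shControl (SD, n = 3 each). By TPM it ranked 391 to 403 among all listed genes in shZNF469 libraries and 279 to 311 in shControl libraries. Below it, the order of TPM levels in shZNF469 was PPP1R15A (94.1), NUPR1 (71.1), DDIT3 (46.3), DDIT4 (45.8), TRIB3 (22.7), ASNS (11.9), SESN2 (9.85), CHAC1 (4.53) and ATF3 (1.79). Only DDIT3 and DDIT4 overlapped between neighbours there. In shControl the TPM order was DDIT4 (90.7), NUPR1 (89.5), PPP1R15A (89.1), DDIT3 (82.9), TRIB3 (38.8), ASNS (24.7), CHAC1 (14.7), SESN2 (12.9) and ATF3 (2.38). In that group DDIT4 overlapped NUPR1, NUPR1 overlapped PPP1R15A, PPP1R15A overlapped DDIT3 and CHAC1 overlapped SESN2, while DDIT3 stood apart from TRIB3. The gene of GADD34, PPP1R15A, was thus apart from DDIT3 and DDIT4 in shZNF469 but stood among overlapping neighbours in shControl.

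The mean ratios of the members to ATF4 did not all move in the same direction. As a share of ATF4 TPM in the same library, CHAC1 stood at 1.44, 1.16 and 1.25% in shZNF469, against 3.52, 3.24 and 2.61% in shControl. ASNS averaged 3.37 ± 0.545% in shZNF469 and 5.24 ± 0.618% in shControl, DDIT4 13.0 ± 1.00 and 19.2 ± 1.46%, DDIT3 13.1 ± 0.338 and 17.5 ± 0.257%, and TRIB3 6.45 ± 0.373 and 8.24 ± 0.973% (SD, n = 3 each, exact permutation p = 0.1 for each). The ratio of PPP1R15A to ATF4 was higher, at 27.7, 28.0 and 24.3% in shZNF469 and 20.0, 19.9 and 16.8% in shControl. ATF4 itself fell 1.30-fold, and the ratio of an unchanged gene to ATF4 rises as ATF4 falls. PPP1R15A on its own did not pass the test. None of these 6 ratios overlapped between groups, and each had an exact two-sided permutation p of 0.1, the smallest that 3 against 3 can give (0.15 adjusted over 9 ratios). The share of all genes whose ratio to ATF4 does not overlap was not computed. The ratios of SESN2, NUPR1 and ATF3 to ATF4 overlapped between groups, with exact permutation p of 1.0, 0.7 and 0.9.

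**Figure D3:**
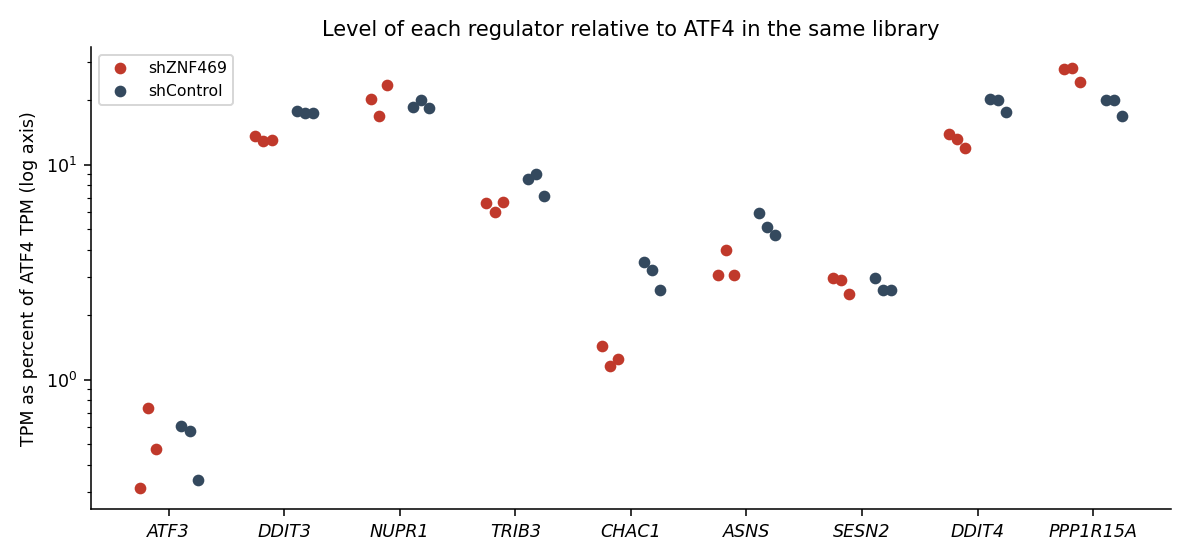
TPM of each ISR gene as a percent of ATF4 TPM in the same library (log axis), for 3 shZNF469 libraries (red, left of each pair) and 3 shControl libraries (dark, right). CHAC1, ASNS, DDIT4, DDIT3 and TRIB3 lie lower in every shZNF469 library, PPP1R15A higher, and SESN2, NUPR1 and ATF3 overlap.

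Paralogues of the members gave mixed directions. Of 9 tested, 2 were higher, against 4.56% of all tested genes, and 7 did not pass. The log2 fold change was negative for 6 of the 9, with a median of -0.13. Every shZNF469 library lay below every shControl library for 3 paralogues and above for 3, where 15.7% and 15.6% of all tested genes did so. DESeq2 called 2 lower and 3 higher. The 2 called higher by edgeR were SESN1 (1.35-fold, 38.8 ± 1.22 against 28.8 ± 0.953 CPM, edgeR adjusted p = 0.00453) and the pseudokinase gene TRIB1 (1.35-fold, adjusted p = 0.0177). SESN1 is best known as a p53 target. For TRIB1 the call depended on shControl replicates 1 and 2 and on shZNF469 replicates 1 and 3, whose omission gave adjusted p of 0.0530 to 0.0785. It was also lost with limma on log2(TPM + 1) and log2(TPM + 0.1) (limma adjusted p = 0.0598 and 0.0563). JDP2, a bZIP gene related to ATF3, was at 34.0 ± 3.97 CPM in shZNF469 and 45.8 ± 5.16 CPM in shControl (adjusted p = 0.0512). It passed with DESeq2 (adjusted p = 0.000616), with library totals (0.0380) and with a minimum count of 30 (0.0400), but in TPM, at 32.6 ± 6.15 in shZNF469 and 34.4 ± 4.94 in shControl, its log2 difference was only -0.081 (limma adjusted p = 0.817). In TPM, the ratio of SESN2 to SESN1 was 0.364, 0.316 and 0.342 in shZNF469, against 0.604, 0.583 and 0.642 in shControl. The ratio of TRIB3 to TRIB1 was 1.69, 1.37 and 1.60 in shZNF469, against 3.60, 3.77 and 3.20 in shControl. For PPP1R15A against the constitutive subunit gene PPP1R15B the ratio was 5.39, 4.63 and 5.01 in shZNF469, against 3.97, 4.24 and 4.25 in shControl. These 3 ratios did not overlap between groups, whereas that of CHAC1 to CHAC2 did (exact permutation p = 0.1 for each of the 3 and 0.7 for CHAC1, 0.133 and 0.7 adjusted over 4 pairs). The 4 pairs were chosen after their values were seen, and ratios to the other paralogues were not taken. The share of all gene pairs whose ratio does not overlap between groups was not computed. SESN2 and SESN1, like TRIB3 and TRIB1, were called in opposite directions, so their ratios add no support to those calls.

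Genes that start the response are given beside the 9.9% of all tested genes called in either direction. Among 9 tested eIF2 kinases and their activators, 1 passed, OMA1, a mitochondrial protease gene of the pathway that relays mitochondrial stress to eIF2, at 13.7 ± 0.545 CPM in shZNF469 and 10.5 ± 0.804 CPM in shControl (adjusted p = 0.0371). This call was lost in 10 of 15 alternatives, among them each fit without 1 library (adjusted p 0.0553 to 0.132). The kinase genes EIF2AK1 (HRI), EIF2AK2 (PKR), EIF2AK3 (PERK) and EIF2AK4 (GCN2) had log2 fold changes of -0.017, -0.021, -0.085 and 0.068 and did not pass (adjusted p 0.573 to 0.938). Of 12 genes of eIF2, its exchange factor eIF2B and its phosphatase, edgeR called 0, with 3 lower at an unadjusted p under 0.05 (PPP1R15B, EIF2S1 and EIF2S2, log2 fold changes -0.18, -0.16 and -0.15) and 3 lower by DESeq2. The log2 fold change was negative for 11 of these 12 (median -0.11). Every shZNF469 library lay below every shControl library for 5 and above for 1, where 15.7% and 15.6% of all tested genes did so. Among 13 C/EBP, ATF and AP-1 partner genes, CEBPG, whose product pairs with ATF4 at amino acid response genes, was the 1 that passed. CEBPG fell 1.89-fold (13.9 ± 1.10 against 26.4 ± 1.51 CPM, edgeR adjusted p = 0.00111).

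**Figure D4:**
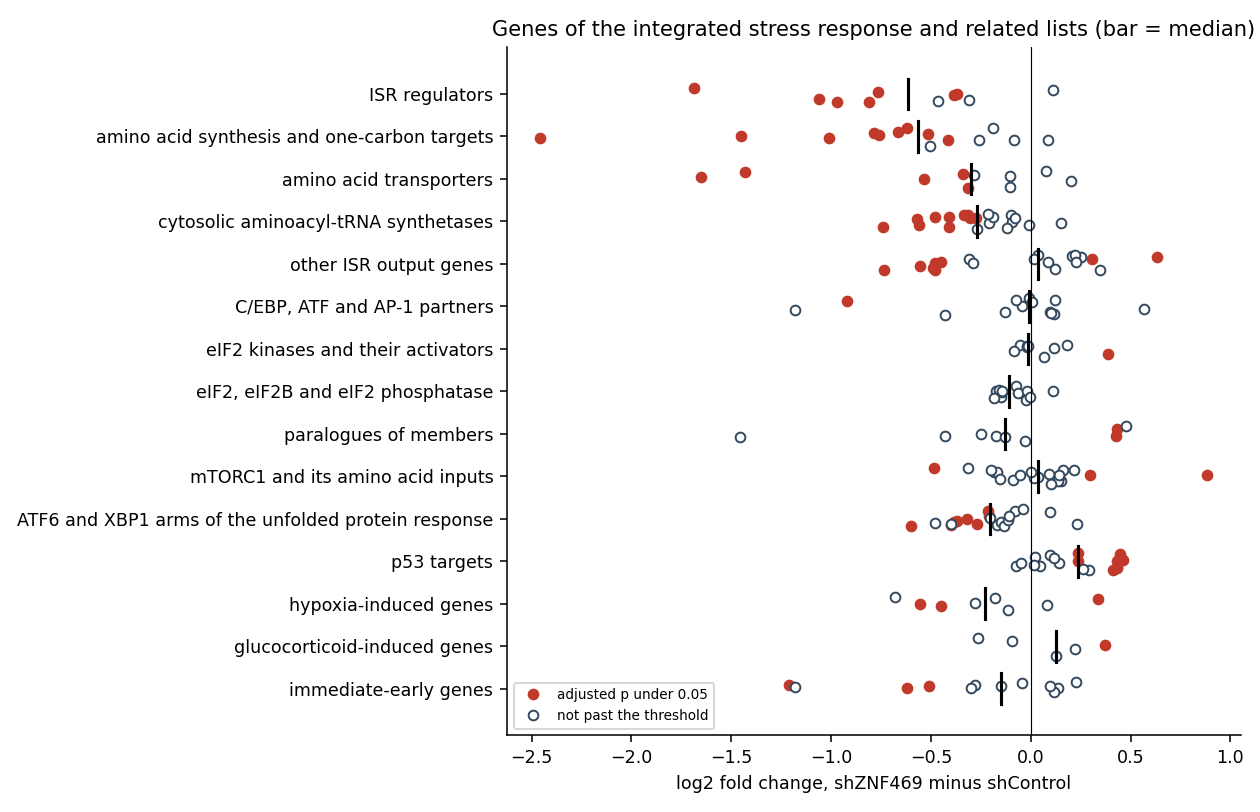
Log2 fold change of shZNF469 minus shControl (horizontal axis) for tested genes of 15 lists (rows), filled where the adjusted p was under 0.05, with a bar at the median of each list. Amino acid synthesis, transport and tRNA charging genes lie mostly below 0 with the ISR regulators, p53 targets mostly above; FOSB, listed at 0 in shControl, is beyond the axis.

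Lower calls were also found among other ATF4 target genes, which were listed in 4 groups. Of the 63 genes tested in the 4 groups together, 30 fell (47.6%) and 2 rose (3.17%). Over all tested genes, 5.34% were called lower and 4.56% higher. The median log2 fold change of the 63 was -0.29, against 0.0039 over all tested genes. Among the 63, the count of lower genes was 17 without shControl replicate 1 and 18 without shZNF469 replicate 1. That of higher genes was 1 without any 1 library other than shZNF469 replicate 2. In amino acid synthesis and one-carbon metabolism, 9 of 14 were lower (median -0.57). PSAT1 and PHGDH, of serine synthesis, fell 5.49-fold and 2.74-fold and the mitochondrial folate enzyme gene MTHFD2 fell 2.02-fold. PSPH, the last step of serine synthesis, was at 7.58 ± 0.568 CPM in shZNF469 and 8.02 ± 0.569 CPM in shControl (adjusted p = 0.719).

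Of 10 amino acid transporter genes, 5 were lower (median -0.30), against 5.34% of all tested genes. Among them SLC7A5, of leucine uptake, fell 2.69-fold, the glycine transporter gene SLC6A9 3.14-fold and the arginine transporter gene SLC7A1 1.45-fold. Fits that omitted shControl replicate 1, 2 or 3, or else shZNF469 replicate 1, each called 3. SLC7A11, of cystine uptake, was at 40.0 ± 7.96 CPM in shZNF469 and 38.1 ± 2.59 CPM in shControl (adjusted p = 0.813). Of 20 cytosolic aminoacyl-tRNA synthetase genes, 10 were lower (median -0.27), led by WARS1 (1.67-fold), MARS1 (1.48-fold) and AARS1 (1.48-fold). With the same 4 omissions the count of lower synthetase genes was 5, 6, 6 and 6.

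The fourth group, other ISR output genes, was split. Of 19 tested, 6 were lower and 2 higher, against 5.34% and 4.56% of all tested genes. The median of the 19 was 0.034, against 0.0039 over all tested genes. Their lower count was 2, 3, 3 and 2 without shControl replicate 1, 2 or 3 or shZNF469 replicate 1. The tRNA exporter gene XPOT fell 1.40-fold and HERPUD1, of protein degradation at the endoplasmic reticulum, 1.39-fold, but the HERPUD1 call was lost without shZNF469 replicate 1 (adjusted p = 0.0553). STC2, which encodes a secreted glycoprotein induced by ATF4, rose 1.55-fold (1137 ± 40.9 against 734 ± 2.53 CPM, edgeR adjusted p = 0.000487). GDF15, a secreted stress cytokine gene, was at 86.6 ± 16.9 CPM in shZNF469 and 73.9 ± 3.93 CPM in shControl (adjusted p = 0.368).

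Calls in related programmes are given beside the 5.34% of all tested genes called lower and the 4.56% called higher. No test compared the programmes with one another. Of 20 genes of the ATF6 and XBP1 arms of the unfolded protein response, 8 were lower (median -0.21), with XBP1 1.52-fold, the chaperone gene HSPA5 1.32-fold and HSP90B1 1.25-fold lower. HSP90B1 did not pass with limma on log2(TPM + 1) or log2(TPM + 0.1) (adjusted p = 0.0939 and 0.103). The count of lower genes was 3, 5, 3 and 3 without shControl replicate 1, 2 or 3 or shZNF469 replicate 1. Of 19 p53 targets, a class to which SESN2 is also known to belong, 9 were higher (median 0.24), among them CDKN1A and CCNG1 at 1.35-fold and 1.36-fold. With the same omissions the count was 4, 2, 3 and 2, and CCNG1 no longer passed when shControl replicate 2 or 3, or shZNF469 replicate 1, was omitted (adjusted p 0.0639 to 0.0772). CCNG1 also did not pass with limma on log2(TPM + 1) or log2(TPM + 0.1) (limma adjusted p = 0.0841 and 0.101). Among 21 mTORC1 genes, 2 were higher (9.52%) and 1 lower (4.76%). RRAGD was 1.85-fold higher, TSC2 1.23-fold higher and SEH1L 1.40-fold lower. The TSC2 call was lost in 10 of 15 alternatives, and that of SEH1L without shControl replicate 1 or shZNF469 replicate 1 (adjusted p 0.0658 and 0.0738). SEH1L also did not pass with limma on log2(TPM + 1) or log2(TPM + 0.1) (limma adjusted p = 0.0677 and 0.0762).

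DDIT4 is also induced by hypoxia and glucocorticoids, and ATF3 by growth signals. Genes of these programmes are again given beside the 5.34% of all tested genes called lower and the 4.56% called higher. Of 8 hypoxia genes, BNIP3 and VEGFA were 1.37-fold and 1.47-fold lower and SLC2A1 1.26-fold higher. VEGFA lost its call without shControl replicate 1 or 2 (adjusted p 0.0592 and 0.0675), and SLC2A1 when shControl replicate 1 or 3, or shZNF469 replicate 1, was omitted (adjusted p 0.0548 to 0.0595). Both also lost it with limma on log2(TPM + 1) and log2(TPM + 0.1) (limma adjusted p = 0.0546 and 0.0684 for VEGFA, 0.0570 and 0.0640 for SLC2A1). Of 5 glucocorticoid-induced genes, SGK1 alone passed and was 1.29-fold higher, while FKBP5 was at 14.2 ± 0.633 CPM in shZNF469 and 17.0 ± 0.833 CPM in shControl (adjusted p = 0.0713). Of 13 immediate-early genes, 3 were lower and 1 higher. EGR1 fell 2.32-fold and FOSL1 1.54-fold, and FOSB, listed at 0 in each shControl library, had 51, 38 and 33 counts in shZNF469. The FOSB call was lost without shZNF469 replicate 1 (adjusted p = 0.0722) and with limma on log2(TPM + 1) or log2(TPM + 0.1) (0.115 and 0.155). Their part in the falls of DDIT4 or in the level of ATF3 was not tested.

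The genes whose profile over the 6 libraries came nearest to that of ATF4, by the root mean square difference of centred log2 CPM among 9392 genes with a mean of 10 CPM or more, were POLE3 (0.030), DNAJB11 (0.030), RUVBL2 (0.032) and PLAT (0.033). DNAJB11, a chaperone gene of the endoplasmic reticulum, is also in the ATF6 and XBP1 list and had 40.8 ± 2.38 CPM in shZNF469 and 52.6 ± 1.90 CPM in shControl. Nearest to the median profile of the 10 members were SMC1A (0.032), PPIF (0.038), HNRNPM (0.038) and LOXL2 (0.041). LOXL2, a collagen cross-linking enzyme gene, had 586 ± 32.7 CPM in shZNF469 and 905 ± 7.86 CPM in shControl. All 8 were called lower in shZNF469, which follows from the profiles they were matched to. SMC1A, PPIF, HNRNPM and LOXL2 kept that call in all 15 alternatives. PLAT lost it in 7 (adjusted p up to 0.131), RUVBL2 in 5 (up to 0.103), DNAJB11 in 3 (up to 0.0586) and POLE3 in 1 (0.0542), and omissions of shControl replicate 1, 2 or 3 or shZNF469 replicate 1 or 2 account for all but the 2 limma settings for PLAT.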

How the data were processed

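Total RNA was purified with the RNeasy kit and sequencing libraries were built with NEBNext Ultra reagents, according to the labels' protocols. The submitters' processing notes name HISAT2, StringTie and the build GRCh38.p14. Neither the strand setting nor the annotation release is given in the sources used here. The deposited table holds whole-number counts per gene and the TPM that the authors computed, per the file headers.

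Counts were tested with edgeR 4.0.16 in R 4.3.3 (filterByExpr with a minimum count of 10, trimmed mean of M-values, a two-sided quasi-likelihood F-test without covariates, Benjamini-Hochberg over 16353 genes). CPM are scaled group means ± SD. Where 1 symbol had several rows, the highest mean was used. On simulated counts over 16351 genes the test recovered 49% of 1.5-fold and 67% of 2-fold changes. Only 200 genes were changed there and the fit ran without the count filter, so recovery in the real data can differ. Ratios of TPM used exact permutation tests (SciPy 1.17.1). DESeq2 1.42.0 and limma 3.58.1 were alternatives. The Benjamini-Hochberg adjusted p of edgeR is meant where no tool is named.

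The members, gene lists and the naming rule were chosen with earlier results of these data known. The rule named ZNF469, the 10 members, up to 3 genes per list with the lowest p, and the 4 nearest profiles to ATF4 and to the median member. Outside it, PSPH, SLC7A11, GDF15, the 4 eIF2 kinases and the 4 paralogue pairs were chosen after their values were seen, and marker genes came from their lists. Sequences and coordinates are from RefSeq on GRCh38.p14, strands and exon overlaps from GENCODE release 29.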

Additional observations from a re-analysis of the deposited data

How the results depend on the processing

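The count of lower members was 5 to 6 with 1 library left out and 6 to 7 under the other settings, against 7; DESeq2 called 1 member higher. No member changed direction in 15 alternatives each, and CHAC1, ASNS, DDIT4, DDIT3 and TRIB3 kept their calls in all of them. Same-numbered libraries of the 2 groups did not clearly deviate together (correlations of -0.023, 0.076 and 0.033 over genes), and those of different number ran from -0.10 to 0.061. Pairing by number was thus not detected, which does not exclude it. With the replicate block, SESN2, OMA1, TSC2 and FOSB did not pass (adjusted p = 0.0632, 0.0596, 0.0770 and 0.0753), while NUPR1 (0.0487, range 0.0487 to 0.486 over its alternatives) and JDP2 (0.0210, range 0.000616 to 0.817) did. The block gave 592 higher and 736 lower genes overall. Over all genes, DESeq2 called 1638 higher and 1642 lower, limma on log2(TPM + 1) 233 and 526, and limma on log2(TPM + 0.1) 191 and 462, against 745 and 874. Leaving out 1 library gave 204 to 769 higher and 333 to 854 lower genes, 17 to 29 lower and 1 to 3 higher other ISR targets, and DESeq2 gave 4 higher targets. Ratios to ATF4 that overlapped between groups changed sign: ATF3 to 0.26, 0.11 and 0.069 (log2) without shZNF469 replicate 1, shControl replicate 1 and shControl replicate 2, SESN2 to -0.0073 without shZNF469 replicate 1 and NUPR1 to -0.038 without shZNF469 replicate 3. With 1 library left out these ratios ran from -0.36 to 0.26 for ATF3 and from -0.038 to 0.20 for NUPR1. The causes were not tested. Depth limits ATF3, with 44 to 102 counts per library.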
